A study of Coturnix japonica with 19 samples.

Results

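The cytoplasmic ribosomal proteins are the protein parts of the ribosome outside the mitochondria, and their genes were followed here through the pituitary gland of 19 Japanese quail. A gene was taken when its symbol began with RPL or RPS and a number, or was RPLP0, RPLP1, RPLP2 or RPSA. Symbols of the RPS6 kinases and symbols ending in L1 were left out. The rule took 69 of the 19562 gene symbols in the count table, 41 named for the large subunit and 28 named for the small subunit. Measured values played no part in the rule. It also took 5 symbols that are no ordinary member: RPL3L, RPL39L and RPS27L are paralogs of RPL3, RPL39 and RPS27, RPS4Y1 carries the name of a human Y-linked copy of RPS4, and RPS19BP1 is a protein that binds RPS19. RPSA itself, FAU, RPL10, RPL13A, RPL28, RPL39, RPS4X, RPS9 and RPS19 were not analysed here.

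A ribosome joins a small subunit, which holds the messenger RNA and reads its codons, to a large subunit, which forms the peptide bonds. Its proteins are needed in near equal numbers, and in vertebrates their messenger RNAs share a terminal oligopyrimidine tract at the start, the TOP motif, through which the mTORC1 kinase pathway raises or lowers their translation together. The anterior pituitary makes large amounts of secreted hormone, such as prolactin and the gonadotropins, and its secretory cells depend on this machinery.

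The study asked how far programs of season and of development share molecular steps in the pituitary, comparing long days (16 h of light and 8 h of dark, 16L) with short days (8 h of light and 16 h of dark, 8L). The groups were adult 16L (5 birds), adult 8L (5), juvenile 16L (4) and juvenile 8L (5). All adults were males that were moved from long to short days, and the 8L adults were taken after 8 weeks of short days, whereas the 16L adults then spent 8 more weeks on long days, so that age and light history differ together with photoperiod. All juveniles hatched into long days for 5 days and spent the next 5 days on 16L or 8L until posthatch day 10, so only the 8L juveniles changed photoperiod. No bird carried a transgene or received a drug. The dissected gland held the pars distalis, while the pars tuberalis was left with the hypothalamus. In such whole tissue, fewer cells of a type and less RNA per cell cannot be told apart.

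Libraries were made from PCR-amplified cDNA and read on an Oxford Nanopore sequencer, and held from 90599 to 4796665 estimated transcript counts, with 5 libraries under 200000. Levels are given as CPM, the counts of a gene per 1000000 counts of its library, after TMM scaling over the 19 libraries. They are not divided by transcript length and compare birds and not genes. Marker sums are per 1000000 counts of the library without TMM scaling. On that measure pituitary hormone transcripts summed to 14758 CPM or more in 17 libraries, but to 1630 and 4272 CPM in juvenile 8L replicates 1 and 5. These were also the birds with the most bone transcripts: a list of osteoblast and osteocyte markers summed to 10084 and 7977 CPM there, to 5189 and 2845 CPM in juvenile 16L replicates 1 and 2, to 131 to 1369 CPM in the other 5 juveniles and to 24.4 to 69.1 CPM in the 10 adults. The 4 libraries over 2000 CPM of bone markers are named bone-rich below, and the members' medians and the named members' differences that involve juveniles are given with and without them. The study lists 3 juveniles as female (16L replicates 2 and 4, and 8L replicate 2). HINTW lies on the W chromosome, which only female birds carry. It had 120 counts in juvenile 16L replicate 3, 67 in 16L replicate 4 and 307 in 8L replicate 2, and none in the other 16 libraries, which goes against the listed sex of juvenile 16L replicates 2 and 3. Replicate 2 is one of the 5 shallow libraries, and 1 count there is worth 11 CPM without TMM scaling. On that measure HINTW had 221, 286 and 286 CPM in the 3 libraries that held it. The part of depth was not tested.

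The 69 genes were counted through 97 transcripts, 51 genes through 1 transcript and 18 through several. In 11 of those 18, the second transcript stood within 5% of the highest, which is closer than alternative forms of a gene usually come. RPS3A, a small-subunit protein at the messenger RNA exit, had a second transcript at 99.99% of the first, and the 4 transcripts of RPL15, a core protein of the large subunit, all had nearly the same count. RPL10A, by contrast, had a second transcript at 15.6% of the first, and RPL7 at 17.3%. A gene's summed level therefore rises with the number of transcripts listed for it: 9 of the 10 highest sums belonged to genes with several transcripts, against 3 of the 10 when only the highest transcript was counted. Whether each read was counted once was not tested. Comparisons between birds use the same transcripts on both sides. Of the 69 genes, 66 had a count in all 19 libraries. RPL3L, in mammals a paralog of striated muscle, had 6 counts in all, in 5 libraries. RPS19BP1 had 167 and RPS27L 283, each in 18 libraries.

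**Figure D1:**
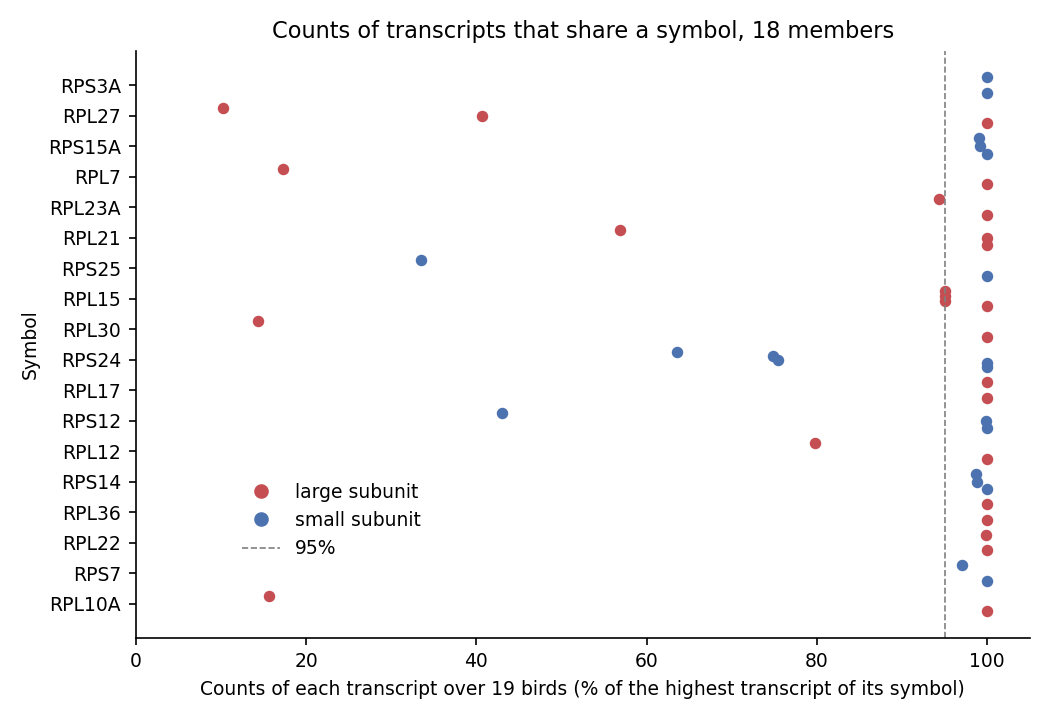
Counts of each transcript of the 18 ribosomal protein genes with several transcripts, summed over 19 libraries and given as a percentage of that gene's highest transcript. Points at or right of the dashed line lie within 5% of the highest transcript, as the second transcript does in 11 genes.

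Ribosomal protein genes took a few percent of each library. In 16L adults they made up 4.03, 1.41, 3.46, 4.25 and 3.88% of counts (mean 3.41 ± 1.15, SD, n = 5), and in 8L adults 2.51, 3.85, 3.92, 3.00 and 4.58% (3.57 ± 0.82, SD, n = 5). In 16L juveniles they made up 3.65, 3.08, 2.25 and 2.95% (2.98 ± 0.57, SD, n = 4), and in 8L juveniles 3.59, 3.73, 2.86, 4.58 and 3.43% (3.64 ± 0.62, SD, n = 5). All 4 groups overlapped, and adult 16L replicate 2 was the lowest of the 19 birds. The share depends on what else a library held, because 78 symbols whose counts lay within 5% of those of another symbol in every library took from 13.4 to 58.6% of the counts, and none of them was a ribosomal protein gene. The near-equal transcripts within ribosomal protein genes stay counted. With these 78 symbols left out of the total, the mean share was 5.02 ± 1.21% in adults on 16L and 4.83 ± 1.08% in adults on 8L. It was 4.57 ± 0.45% in juveniles on 16L and 6.69 ± 2.31% in juveniles on 8L. On that scale juvenile 8L replicates 1, 4 and 5 stood highest of all birds, at 8.68, 8.58 and 7.76%. Replicates 1 and 5 are the bone-rich libraries of that group, and replicate 4 had 1369 CPM of bone markers and 11192 CPM of red blood cell markers, both without TMM scaling. The part of bone and blood in this share was not tested. Large-subunit genes took 49.9 to 55.7% of the ribosomal protein counts in every bird, so the balance between the subunits moved little. The ribosomal protein share of all counts ran from 1.41 to 4.58%, and from 2.25% without adult 16L replicate 2.

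**Figure D2:**
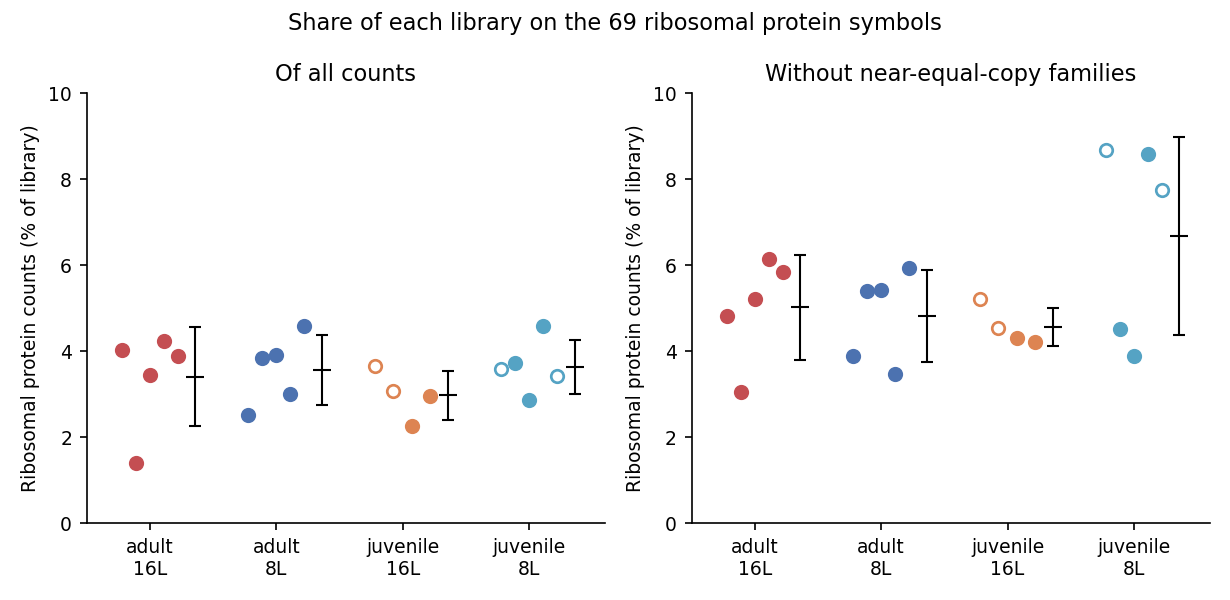
Ribosomal protein genes as a percentage of all counts (left) and of counts without the 78 symbols whose counts lie within 5% of another symbol's in every library (right), one point per bird in each of the 4 groups, with the mean and SD in black. Hollow points are the 4 bone-rich libraries. On the left the groups overlap, and on the right juvenile 8L replicates 1, 4 and 5 lie above all other birds.

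With age and photoperiod compared gene by gene over the whole table, no ribosomal protein gene passed an adjusted p of 0.05 in edgeR's quasi-likelihood test in any of the 7 comparisons. Of all genes tested, the share called was 0.0267% for adult 16L against adult 8L, 0% for juvenile 16L against juvenile 8L, 1.31% for juvenile 16L against adult 16L and 0.157% for juvenile 8L against adult 8L. It was 1.95% for age with photoperiod as a term, 0.014% for photoperiod with age as a term and 0% for their interaction. At an unadjusted p under 0.05 the ribosomal protein genes that passed numbered, in the same order, 0, 0, 1, 8, 4, 0 and 1, beside 3.18, 1.7, 9.82, 8.5, 13.1, 3.18 and 5.74% of all genes. At p under 0.01 only RPL10A passed, for age, beside 5.33% of all genes. Limma-voom called none in any comparison, and DESeq2 called RPL10A in 8L juveniles against 8L adults and for age, and no other member. The shares of all genes called above are those of edgeR. The share that DESeq2 called is not given here, so its calls of RPL10A cannot be set beside it. In 6 of the 7 comparisons most members lay on the same side of 0, as the plot of fold changes by comparison shows, and between the ages on long days they did not. They are co-expressed and were measured in the same birds, so their common side is a description and not a count of independent results.

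**Figure D3:**
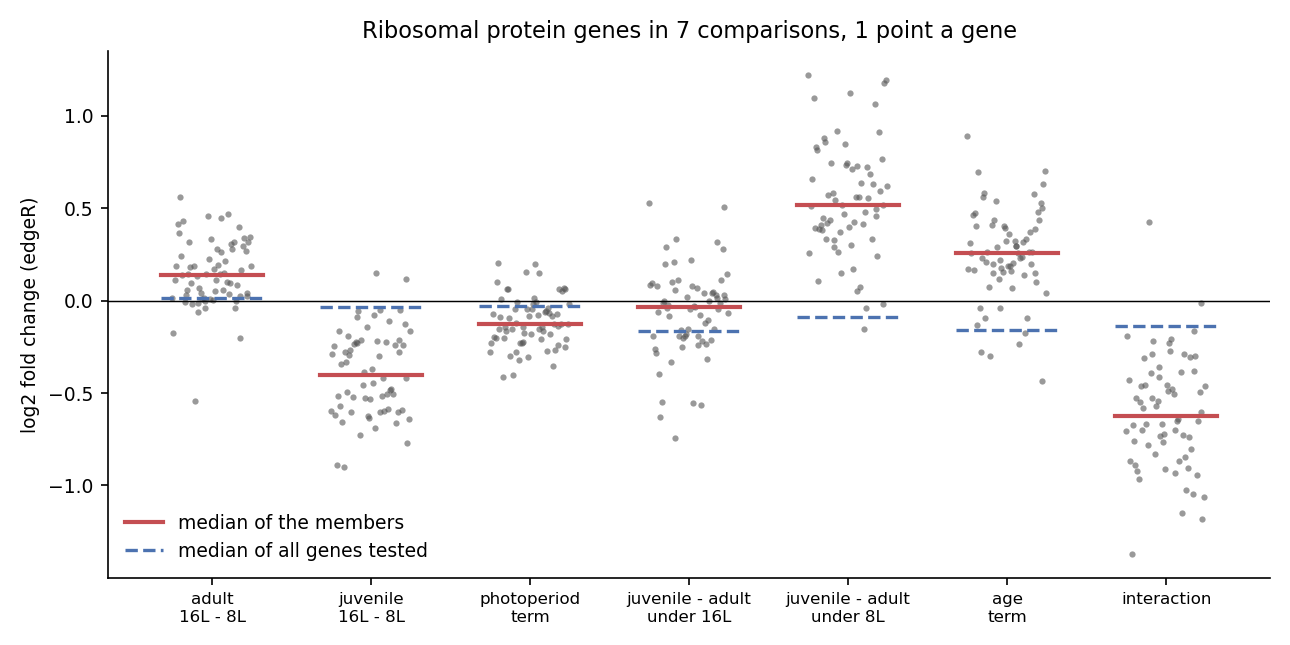
Log2 fold change of each tested ribosomal protein gene (points) in the 7 comparisons, with the members' median as a red line and the median of all tested genes as a blue dashed line. The members' median lies furthest above 0 for juvenile 8L minus adult 8L, at 0.52, and furthest below for the interaction, at -0.62, and no point passed an adjusted p of 0.05.

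In adults, the differences by photoperiod were small. Their median log2 difference, 16L minus 8L, was 0.14 over 68 tested genes, beside 0.02 over all 7478, and 57 of the 68 lay above 0, beside 51.7% of all genes. This median rests on single birds: it was 0.07 without adult 8L replicate 1, 0.08 without adult 16L replicate 4 or adult 8L replicate 4, 0.25 without adult 8L replicate 5 and 0.30 without adult 16L replicate 2, and it stayed above 0 with any 1 bird left out. The 95% interval stayed within a 2-fold difference either way for 51 of the 68, beside 24.6% of all genes. The smallest unadjusted p was that of RPL15. RPL15 stood at 2731, 1433, 2079, 1244 and 1339 CPM in 16L adults and at 1339, 1369, 1565, 552 and 1156 CPM in 8L adults. The groups overlapped, with 2 of the 16L birds above every 8L bird and 1 8L bird, replicate 4, far below the rest. The log2 difference was 0.56 (SE 0.33, edgeR adjusted p = 0.999). RPL36A, which reaches the site where a spent tRNA leaves the ribosome, had 252, 188, 269, 349 and 277 CPM in 16L adults and 184, 214, 273, 61.4 and 234 CPM in 8L adults. Here too the lowest bird was adult 8L replicate 4, and the rest of the 8L birds fell within the 16L range or just below it (log2 difference 0.46, SE 0.34, edgeR adjusted p = 0.999). On the other side, RPL7A of the large subunit had 273, 173, 331, 398 and 326 CPM in 16L and 220, 283, 314, 472 and 355 CPM in 8L adults. The log2 difference was -0.18 (SE 0.30, edgeR adjusted p = 0.999), and it was 0.03 without adult 8L replicate 4. RPS19BP1 had 12.8, 3.5, 8.11, 7.89 and 5.59 CPM in 16L and 12.3, 12.6, 14.5, 3.35 and 13.7 CPM in 8L adults, where 4 of 5 8L birds lay near or above the highest 16L bird and replicate 4 below all 16L birds (log2 difference -0.54, SE 0.44, edgeR adjusted p = 0.999).

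In juveniles, the 16L birds were mostly lower. The median log2 difference, 16L minus 8L, was -0.40 over 66 tested genes, beside -0.04 over all 2405, and 2 of the 66 lay above 0, beside 47.6% of all genes. Without the 4 bone-rich libraries, which leaves 2 birds on 16L and 3 on 8L, 15 of 66 lay above 0. Both 16L birds left hold HINTW counts, and of the 8L birds left only replicate 2 does. Neither photoperiod nor the removal of bone can be told apart from sex there. The median was then -0.18, beside 0.05 over all genes tested. Without the 2 libraries whose HINTW counts go against the listed sex it was -0.49. The precision was low: the 95% interval stayed within 2-fold for 4 of the 66 genes, beside 1.41% of all genes. RPL37, a small zinc-binding protein of the large subunit, had the smallest p. It stood at 621, 494, 482 and 336 CPM on 16L and at 1369, 441, 543, 1138 and 1190 CPM on 8L. The 8L birds fell into high (replicates 1, 4 and 5) and low (replicates 2 and 3), and the low ones lay within the 16L range. The log2 difference was -0.89 (SE 0.42, edgeR adjusted p = 0.999), and -0.88 without the bone-rich libraries. RPL5, which with RPL11 carries the 5S RNA into the large subunit, stood at 130, 70.5, 89.4 and 84.1 CPM on 16L and at 247, 103, 102, 211 and 251 CPM on 8L. The same 3 of the 8L birds lay above the 16L range (log2 difference -0.90, SE 0.47, edgeR adjusted p = 0.999, and -0.75 without the bone-rich libraries). The only members above 0 were RPL21 and RPL19, both of the large subunit. RPL21 stood at 1205, 1169, 1090 and 1377 CPM on 16L and at 1267, 895, 747, 987 and 1821 CPM on 8L, with the 16L birds inside the 8L range (log2 difference 0.15, SE 0.34, and 0.41 without the bone-rich libraries). RPL19, whose long helix reaches across to the small subunit, stood at 389, 312, 268 and 188 CPM on 16L and at 326, 270, 145, 242 and 404 CPM on 8L, again inside that range (log2 difference 0.12, SE 0.41, and -0.03 without the bone-rich libraries).

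Between juveniles and adults on long days the members did not lie to one side. The median log2 difference, juvenile minus adult, was -0.03 over 67 tested genes, beside -0.16 over all 6641, and 27 of the 67 lay above 0, beside 39.4% of all genes. Without the bone-rich libraries, where both juveniles left hold HINTW counts, the median was -0.05, beside -0.18 over all genes tested. Without the 2 libraries at odds with the listed sex it was -0.08. Leaving out 1 bird turned its sign or moved it further: it was 0.03 without adult 16L replicate 3 or 5, 0.05 without replicate 4 and -0.18 without replicate 2 of that group, and -0.08 and -0.10 without juvenile 16L replicates 1 and 3. RPS3A stood at 1851, 2859, 1423, 1723 and 1617 CPM in 16L adults and at 1066, 927, 1420 and 1041 CPM in 16L juveniles. It was the 1 member whose groups did not overlap, where 5.53% of all genes did not overlap with juveniles lower. The gap between the groups was narrow, 1420 against 1423 CPM, and the log2 difference was -0.74 (SE 0.33, edgeR adjusted p = 0.463), and -0.62 without the bone-rich libraries. RPS23, which lies in the decoding centre, stood at 650, 530, 745, 786 and 799 CPM in 16L adults and at 570, 564, 331 and 332 CPM in 16L juveniles. Replicates 3 and 4 were the low juveniles, and the other 2 lay within the adult range (log2 difference -0.63, SE 0.33, edgeR adjusted p = 0.586). Without the bone-rich libraries, which leaves those low birds as the only juveniles, it was -1.08 (edgeR adjusted p = 0.158). RPL19 stood at 198, 112, 228, 260 and 232 CPM in 16L adults, against the 188 to 389 CPM of the 16L juveniles, 3 of which lay above every adult (log2 difference 0.51, SE 0.36, edgeR adjusted p = 0.782, and 0.15 without the bone-rich libraries).

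On short days, after TMM scaling, the juveniles were higher for nearly all members. The median log2 difference, juvenile minus adult, was 0.52 over 66 tested genes, beside -0.09 over all 5106, and 63 of the 66 lay above 0, beside 44.6% of all genes. All 40 large-subunit genes (median 0.51) and 23 of 26 small-subunit genes (median 0.53) lay above 0. Without the bone-rich libraries, which leaves 3 juveniles, 43 of 68 lay above 0. The median was then 0.08, beside -0.18 over all genes tested. Without juvenile 8L replicate 5 alone it was 0.33. At an unadjusted p under 0.05 there were 8 of 66, beside 8.5% of all genes. The summed level of the members was uneven among these juveniles. It was 57508, 31659, 25445, 41812 and 55601 CPM in 8L juveniles. The adults had 29727 ± 6573 CPM (SD, n = 5) on 8L and 33705 ± 7201 CPM (SD, n = 5) on 16L, and the juveniles on 16L had 30583 ± 3066 CPM (SD, n = 4). Replicates 1 and 5 were the highest. Replicate 4 also lay above every bird of the other groups, whose highest was 40663.5 CPM in an adult on 16L. It is under the bone-rich limit, but had 1369 CPM of bone markers and 11192 CPM of red blood cell markers, both without TMM scaling. Replicates 2 and 3 lay within the range of the other groups. Replicates 1 and 5 of the 8L juveniles had the lowest TMM factors of the 19 libraries, 0.625 and 0.617. Without TMM scaling, the members took 3.59 and 3.43% of their counts, beside a mean of 3.57% in 8L adults. By the highest transcript, the mean share was 4.31% in 8L juveniles and 5.25% in 8L adults. Without the 78 near-equal symbols it was 6.69% in 8L juveniles and 4.83% in 8L adults. The part of bone cells in the difference was not tested.

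RPL10A had the smallest p of any member with age. The protein forms the L1 stalk, the arm of the large subunit that guides spent tRNA out. RPL10A stood at 126, 59.6, 181, 200 and 148 CPM in 16L adults and at 105, 107, 151, 152 and 172 CPM in 8L adults. It stood at 250, 232, 187 and 148 CPM in 16L juveniles and at 502, 286, 155, 342 and 326 CPM in 8L juveniles. On short days 4 of 5 juveniles lay above every 8L adult and the fifth, replicate 3, lay among them. On long days 2 of 4 juveniles lay above every 16L adult. The log2 difference, juvenile minus adult, was 1.22 on 8L (SE 0.41, edgeR adjusted p = 0.493) and 0.53 on 16L (SE 0.40, edgeR adjusted p = 0.805). With both photoperiods in 1 fit it was 0.89 (SE 0.29, 95% interval 0.30 to 1.49, edgeR adjusted p = 0.135). DESeq2 gave RPL10A the same difference for age, 0.89, with an adjusted p of 0.00817, and 1.21 on 8L with an adjusted p of 0.0224. The share of all genes that DESeq2 called is not given here. Over the alternatives tried for age its log2 difference ran from 0.57 to 1.11 and its adjusted p from 0.00817 to 0.573, with the lowest difference and the highest p in the fit without the bone-rich libraries. Without them it was 0.82 on short days, with an edgeR adjusted p of 0.979, and 0.23 on long days.

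RPS21, a small-subunit protein on the solvent side, came next. It stood at 230, 166, 359, 423 and 412 CPM in 16L adults and at 207, 320, 323, 106 and 219 CPM in 8L adults. In juveniles it stood at 468, 353, 358 and 280 CPM on 16L and at 612, 534, 296, 604 and 509 CPM on 8L. On short days 4 of 5 juveniles lay above every 8L adult, and on long days 1 of 4 lay above every 16L adult. The log2 difference for age was 0.70 (SE 0.29, edgeR adjusted p = 0.279), and on 8L alone it was 1.12 (SE 0.42, edgeR adjusted p = 0.518). These were 0.56 and 0.95 without the bone-rich libraries. RPL37, at 352, 521, 607, 212 and 488 CPM in 8L adults and at the values given above in 8L juveniles, had a log2 difference of 1.10 on 8L (SE 0.45, edgeR adjusted p = 0.529), and of 0.57 without the bone-rich libraries. RPS12, of the beak of the small subunit, stood at 559, 571, 750, 386 and 1221 CPM in 8L adults and at 2750, 923, 766, 1098 and 2387 CPM in 8L juveniles. Only the bone-rich replicates 1 and 5 lay above every adult (log2 difference 1.17, SE 0.48, edgeR adjusted p = 0.536), and without these 2 birds it was 0.33. The members with the smallest p in the other direction on 8L were near 0: the log2 difference of RPS3A was -0.15 and that of RPS10, which sits near the messenger RNA entry, -0.04. RPS3A stood at 2529, 2575, 1477, 1303 and 1344 CPM in 8L adults and at 3484, 1083, 727, 1370 and 1661 CPM in 8L juveniles, and RPS10 at 416, 396, 277, 180 and 311 CPM and at 628, 140, 165, 302 and 310 CPM. Juvenile replicate 1 was the highest bird for both genes, and the groups overlapped. With the bone-rich libraries left out, the log2 difference was -0.90 for RPS3A and -0.77 for RPS10.

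**Figure D4:**
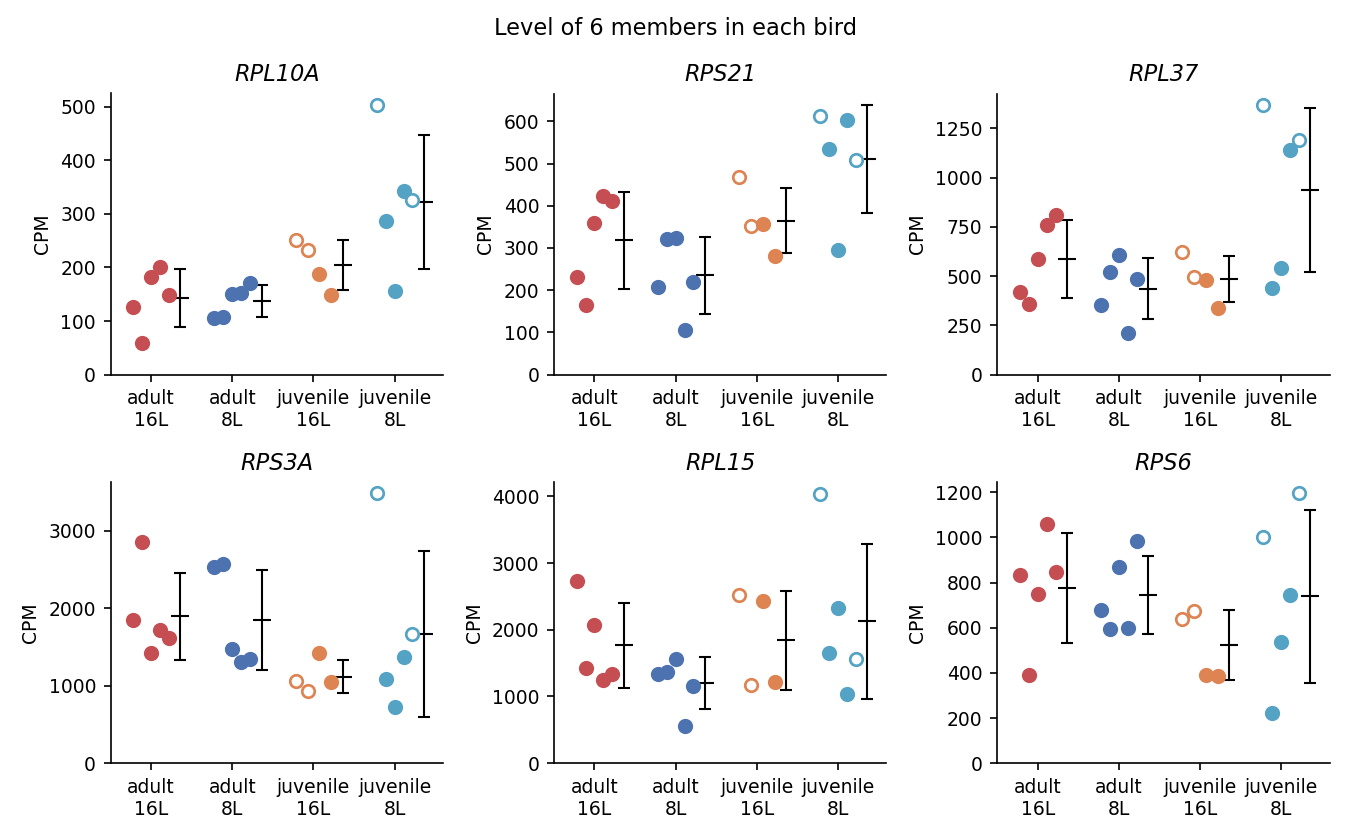
TMM-scaled CPM of RPL10A, RPS21, RPL37, RPS3A, RPL15 and RPS6 in each of 19 birds by group, with the mean and SD in black. Hollow points are the 4 bone-rich libraries. For RPL10A and RPS21, 4 of 5 juveniles on 8L lie above every adult on 8L, and the age groups overlap on short days for all 6 genes.

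Taking all birds together, the median log2 difference for age was 0.26 over 68 tested genes, beside -0.16 over all 7165, with 58 of the 68 above 0, beside 39% of all genes. Without the bone-rich libraries it was 0.01, beside -0.19 over all genes tested, with 37 of 68 above 0. Without the 2 libraries whose HINTW counts go against the listed sex it was 0.27. Without adult 8L replicate 4 it was 0.17. RPS3A had the smallest p among the members lower in juveniles, with a log2 difference of -0.43 (SE 0.29, edgeR adjusted p = 0.581), and -0.77 without the bone-rich libraries. For photoperiod with age as a term the median was -0.13, beside -0.03 over all genes, and 13 of 68 lay above 0, beside 47.3% of all genes. Without the bone-rich libraries that median was 0.10, beside 0.01 over all genes tested, with 52 of 68 above 0. The direction of this small difference thus turned with 4 libraries. It ranged from -0.20 without adult 16L replicate 4 to -0.06 without juvenile 8L replicate 1 or 5, and was -0.07 and -0.08 without juvenile 16L replicates 2 and 4. Without the 2 libraries whose HINTW counts go against the listed sex it was -0.03. The 95% interval for photoperiod stayed within 2-fold for 66 of the 68 members, beside 22.3% of all genes. The members with the smallest p were RPL5, with a log2 difference of -0.41, and RPS7 of the small subunit, with -0.36 (edgeR adjusted p = 1.00 for both, rounded). On the other side RPL21 and RPL15 were both at 0.20. These 4 genes were, in that order, at -0.14, -0.23, 0.38 and 0.44 without the bone-rich libraries. RPS7 stood at 192, 104, 461, 289 and 322 CPM in 16L adults, 185, 276, 279, 293 and 342 CPM in 8L adults, 371, 312, 258 and 136 CPM in 16L juveniles and 761, 417, 242, 352 and 487 CPM in 8L juveniles. Only among juveniles did some 8L birds lie above every 16L bird.

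Whether the photoperiod difference depended on age was tested by the interaction term, the difference in juveniles minus that in adults. Its median was -0.62 over 68 members, beside -0.14 over all 7165 genes, and 1 of the 68 lay above 0, beside 43.8% of all genes. It was -0.30 without the bone-rich libraries, beside -0.14 over all genes tested, with 16 of 68 above 0. Without the 2 libraries at odds with the listed sex it was -0.59. RPL37 had the smallest p, with an interaction of -1.37 (SE 0.58, edgeR adjusted p = 0.816), and -1.13 without the bone-rich libraries. In adults RPL37 stood at 418, 361, 586, 759 and 812 CPM on 16L, above the 8L mean of 436 CPM in 3 of 5 birds, and in juveniles the 16L birds lay below 3 of the 8L birds. RPS12 followed, with -1.18 (SE 0.59, edgeR adjusted p = 0.885), and -0.31 without the bone-rich libraries. It stood at 779, 518, 1039, 1146 and 948 CPM in 16L adults and at 867, 806, 1065 and 769 CPM in 16L juveniles, 2 groups that lay close together. The highest positive term was that of RPS19BP1, 0.42 (0.98 without the bone-rich libraries), which rests on few counts.

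RPS6, RPS23 and RPL17 are grouped here because their shares of the ribosomal protein counts were lowest in the same 3 birds. In the chicken, the genes of all 3 lie on the Z chromosome, of which male birds carry a pair and females a single copy, and where most genes are only partly compensated between the sexes. RPS6 is the substrate of the S6 kinases, RPS23 lies in the decoding centre and RPL17 lies near the exit of the peptide tunnel. The share of each in the ribosomal protein counts of a bird was lowest in the same 3 of 19 birds, juvenile 16L replicates 3 and 4 and juvenile 8L replicate 2, which were the 3 libraries with HINTW counts. RPS6 took 1.18, 1.40 and 0.698% of the ribosomal protein counts in those birds, and from 1.74 to 2.97% in the other 16. RPS23 took 0.997, 1.20 and 0.898% there and 1.495 to 2.38% in the others. RPL17 took 1.41, 1.25 and 1.61% there and 1.85 to 3.797% in the others. No other of the 66 members counted in every library had its 3 lowest shares in those birds, and none had its 3 highest there. RPL37, whose gene also lies on the chicken Z, took 1.45, 1.22 and 1.39% there and 1.05 to 2.72% in the other birds, so it did not separate them. These 4 genes were chosen after their values were seen, and the pattern is a description with no test. All 3 birds are juveniles, and none is bone-rich.

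The levels of these genes showed the same birds. RPS6 stood at 640, 675, 390 and 388 CPM in 16L juveniles and at 1000, 221, 538, 745 and 1197 CPM in 8L juveniles, against 391 to 1060 CPM in the 10 adults. RPS23 stood at 1040, 284, 446, 816 and 1164 CPM in 8L juveniles, with the 16L juveniles as given above. RPL17 stood at 955, 1028, 466 and 344 CPM in 16L juveniles and at 1569, 508, 630, 1148 and 1684 CPM in 8L juveniles, against 411 to 1201 CPM in adults. In each gene the 3 birds with HINTW counts were the 3 lowest juveniles. For age with photoperiod as a term, the log2 difference of RPS6 was -0.28 with all birds (edgeR adjusted p = 0.769) and -0.07 without those 3. That of RPS23 was -0.09 with all birds and 0.15 without them, and that of RPL17 was 0.14 and 0.39. Leaving out the bone-rich libraries instead, the differences were -0.84 for RPS6, -0.62 for RPS23 and -0.53 for RPL17. That fit keeps all 3 birds with HINTW counts among fewer juveniles, and all adults are males, so age and sex cannot be told apart there. On long days alone, RPS23 was at -0.63 with all birds and at -0.41 without the birds with HINTW counts, and RPL17 at -0.24 and 0.16. The fits without the birds with HINTW counts leave 2 birds in the juvenile 16L group, both bone-rich. None of the 3 genes passed an adjusted p of 0.05 with all birds or without the birds with HINTW counts.

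The P stalk, which draws elongation factors to the ribosome, is built from RPLP0 as its base and pairs of RPLP1 and RPLP2. RPLP0 had group means of 167 ± 51.7, 143 ± 53.5, 158 ± 36.8 and 171 ± 62.1 CPM (SD, n = 5, 5, 4 and 5 for adult 16L, adult 8L, juvenile 16L and juvenile 8L). RPLP1 had 802 ± 66.7, 632 ± 218, 707 ± 274 and 1060 ± 405 CPM, and RPLP2 had 375 ± 111, 312 ± 106, 354 ± 34.3 and 552 ± 229 CPM in the same order. The 8L juveniles had the highest mean for all 3 and also the largest SD, with replicate 5 highest for RPLP1 at 1658 CPM and replicate 1 highest for RPLP2 at 796 CPM. Replicates 1 and 5 are bone-rich, and means without them are not given here. RPLP0 stood at 188 and 253 CPM in replicates 1 and 5 of the 8L juveniles, and at 150, 82.4 and 181 CPM in replicates 2, 3 and 4. Adult 8L replicate 4 was the lowest bird for both stalk proteins, at 248 CPM for RPLP1 and 165 CPM for RPLP2, but not for their base RPLP0, where it had 162 CPM.

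Among the other members, RPS24 had the highest mean level over birds, 1977 CPM, followed by RPS15A with 1922 CPM and RPL15 with 1726 CPM. Each of these 3 has several transcripts, all of near-equal counts in RPS15A and RPL15. Of the 5 transcripts of RPS24, the second stood at 99.95% of the highest and the lowest at 63.5%. RPS24, a small-subunit protein, had means of 1791 ± 604, 1738 ± 356, 1765 ± 294 and 2571 ± 1185 CPM in the 4 groups in the order above, and RPS15A had 1896 ± 585, 1684 ± 481, 1624 ± 390 and 2424 ± 734 CPM. RPS27A, which is made as a fusion with ubiquitin, had 812 ± 311, 787 ± 226, 777 ± 145 and 995 ± 389 CPM. RPL3, a protein near the peptidyl transferase centre, had 140 ± 38.1, 136 ± 28 and 135 ± 39.6 CPM in the first 3 groups and 181 ± 71.9 CPM in 8L juveniles. RPL22, which binds RNA also outside the ribosome, had 355 ± 104, 337 ± 116, 350 ± 48.1 and 462 ± 193 CPM. In all of these the 8L juveniles had the highest mean, and their range overlapped that of every other group. Those means include the bone-rich juvenile 8L replicates 1 and 5, and means without them are not given here. RPS27A stood at 1122 and 1533 CPM in replicates 1 and 5, and at 493, 780 and 1047 CPM in replicates 2, 3 and 4. RPL22 stood at 596 and 695 CPM in replicates 1 and 5, and at 283, 252 and 483 CPM in replicates 2, 3 and 4. The lowest levels were those of RPL3L, at 0.276 CPM on average, RPS19BP1 at 8.44 CPM and RPS27L at 14.4 CPM. RPS27L, in mammals a p53 target, had 14 ± 6.39, 11.2 ± 4.14, 12.4 ± 10.2 and 19.6 ± 5.58 CPM, and juvenile 16L replicate 2, where 1 count is worth 11 CPM of the library, had none.

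Relative to one another the members held fairly constant proportions. The share of each in the ribosomal protein counts varied over the 19 birds with a coefficient of variation from 11.9% for RPS15A, 12.6% for RPL22 and 13.54% for RPL27A to 39.6% for RPS10, 39.9% for RPL15 and 51.6% for RPS3A. The median over 66 genes was 24.0%, with 24 genes under 20% and 5 over 35%. In 13 of the 19 birds no member was 2-fold or more from its mean share, and all 20 such values, of 1254, came from 6 birds. By the mean absolute log2 of the shares over their means, adult 8L replicate 4 differed most, at 0.526. By members 2-fold or more off, juvenile 8L replicate 2 did, with 2 above and 5 below, against 3 and 3 in that adult. Adult 8L replicate 4 was low in RPS29 (0.642% of ribosomal protein counts, mean over birds 2.10%), RPL38 (0.559%, mean 1.74%) and RPL36A (0.304%, mean 0.702%), which encode some of the smallest ribosomal proteins. It was high in RPL7A (2.34%, mean 1.01%), RPL5 (0.952%, mean 0.411%), RPL8 (1.34%, mean 0.665%), RPS3 (1.75%, mean 0.875%) and RPL4 (1.44%, mean 0.725%), which encode larger ones. Lengths of the messenger RNAs were not used here, so whether transcript length goes with this was not tested. Adult 16L replicate 2 had 12.9% of its ribosomal protein counts in RPS3A, against 2.86 to 9.59% in the other birds, and also more RPS10 (1.98%, mean 0.941%) and less RPL10A (0.268%, mean 0.575%). Juvenile 8L replicate 2, a bird with HINTW counts, was low in RPS6 and RPL27 (1.34%, mean 3.42%) and high in RPS29 (4.72%).

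**Figure D5:**
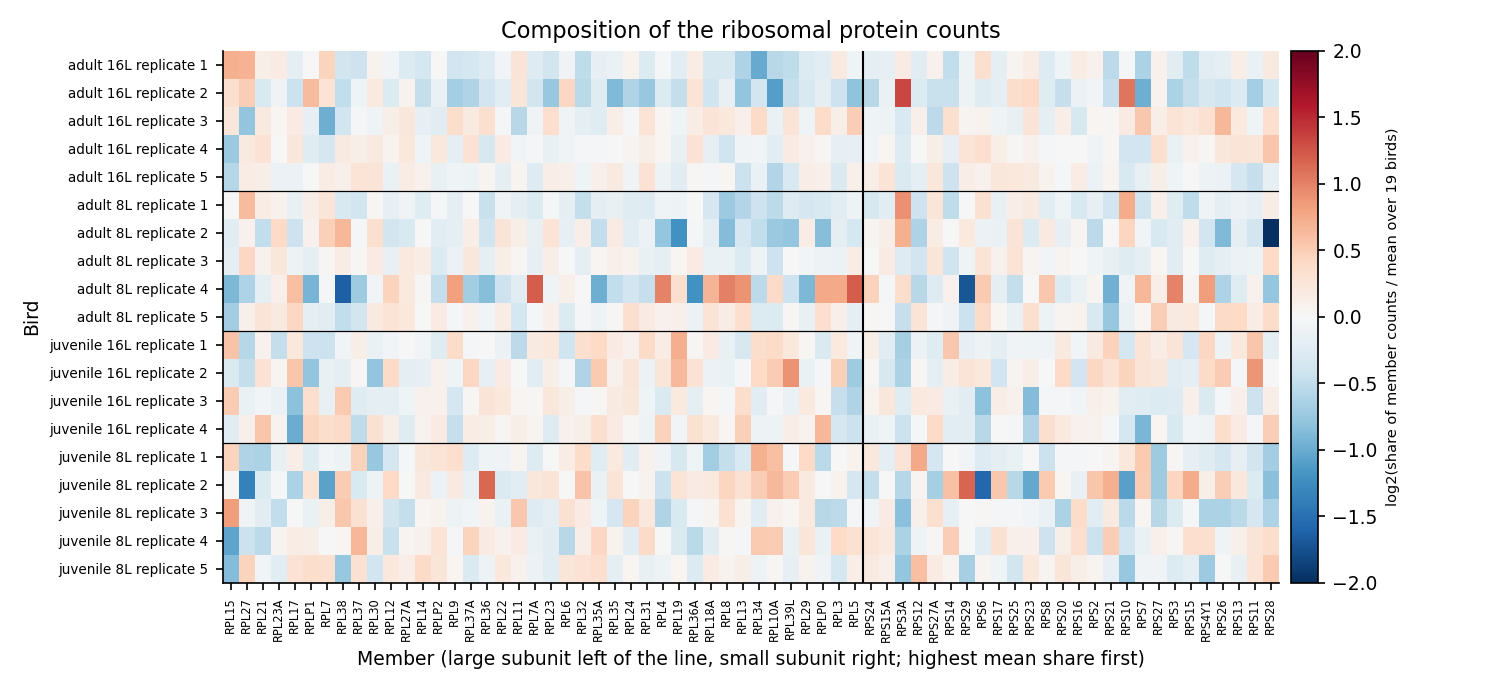
Log2 of each member's share of the ribosomal protein counts against its mean share over 19 birds, for 19 birds (rows) and 66 members (columns), on a colour scale from -2 to 2. Most cells are near 0, adult 8L replicate 4 stands out with both low and high members, and RPS6, RPS23 and RPL17 are low in juvenile 16L replicates 3 and 4 and juvenile 8L replicate 2.

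A member's share sets aside the higher total of single birds, but it also moves when other members change. RPS3A, for example, had a median share of 4.98% in adults and 3.29% in juveniles. RPL10A and RPS21 are given here because they had the smallest p for age among the members higher in juveniles. The bone-rich libraries are included. RPL10A took 0.268 to 0.753% of ribosomal protein counts in adults (median 0.416) and 0.536 to 0.902% in juveniles (median 0.752). All adults but adult 8L replicate 4 lay below every juvenile, and 4 of 9 juveniles lay above every adult. RPS21 took 0.526 to 1.06% in adults (median 0.857) and 0.915 to 1.69% in juveniles (median 1.16), and 7 of 9 juveniles lay above every adult. No member's shares separated the ages entirely. The same counts gave the CPM comparison of these genes, so the shares are a description of it and no further support.

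Other genes of ribosome production and its control were taken from lists of named pathways. With all birds, edgeR called none at an adjusted p under 0.05 in any comparison, beside the shares of all genes called given above. For age, 42 of 52 tested mitochondrial ribosomal protein genes lay above 0 (median log2 difference 0.21), as did 12 of 17 tested TOP messenger RNAs other than ribosomal proteins (median 0.18) and 5 of 8 elongation factor genes (median 0.21). Initiation factors had a median of 0.09 (18 of 31 above 0) and ribosome biogenesis factors 0.05 (17 of 29). RNA polymerase I genes, which make ribosomal RNA, lay lower, with a median of -0.46 and 1 of 5 above 0, and so did the RPS6 kinase family with a median of -0.54 and 1 of 5 above 0. The smallest p among these lists were those of RPS6KA1, a kinase of the ERK pathway that phosphorylates RPS6 (log2 difference -2.16, edgeR adjusted p = 0.140), and RPTOR, the substrate-binding part of mTORC1 (-1.85, edgeR adjusted p = 0.184). UBTF, which opens ribosomal DNA for polymerase I, was at -1.47 (edgeR adjusted p = 0.268), and PABPC1, a poly(A)-binding protein with a TOP motif, at 0.96 (edgeR adjusted p = 0.277). RACK1, a scaffold on the small subunit, had a log2 difference of 0.12. In juveniles by photoperiod, the TOP messenger RNAs had a median of -0.34 (3 of 15 above 0) and the mitochondrial ribosomal protein genes -0.26 (2 of 9), whereas the elongation factors were at 0.04. Without the bone-rich libraries, edgeR's filter keeps other genes, and the median for age was -0.19 over all genes tested. Beside it, the medians were 0.16 for the mitochondrial ribosomal proteins (36 of 60 above 0), -0.18 for the TOP messenger RNAs (4 of 18) and -0.21 for the elongation factors (0 of 8). They were -0.10 for the initiation factors (14 of 36) and -0.07 for the ribosome biogenesis factors (20 of 44). For RNA polymerase I the median was -0.25 (3 of 9), and for the RPS6 kinase family -0.34 (2 of 7). In juveniles by photoperiod the medians were then -0.14 for the TOP messenger RNAs (6 of 13), -0.23 for the mitochondrial ribosomal proteins (8 of 21) and 0.20 for the elongation factors. The median over all genes tested was 0.05 there. The regulators of mTORC1 and TOP messenger RNAs, a list that holds RPTOR, then had a median of 0.05 for age, with 11 of 21 above 0. Their median with all birds is not given here. The only call from these lists without the bone-rich libraries was 1 of 5 RPS6 kinase genes, for juvenile 16L minus adult 16L. Both juveniles left in that fit hold HINTW counts and all adults are males, so age and sex cannot be told apart there. The share of all genes called in that fit is not given here. Among markers of other cell types, some were called higher in juveniles for age, beside 1.14% of all genes. They were 9 of 10 tested bone genes, 5 of 6 red cell genes and 6 of 7 genes of dividing cells. Leukocyte marker sums, without TMM scaling, lay the other way. Their means were 726 and 661 CPM in adults on 16L and 8L, and 39.1 and 77.0 CPM in juveniles. Without the bone-rich libraries, 4 of 8 bone, 1 of 6 red cell and 5 of 12 dividing-cell genes were called in either direction for age. So were 1 of 3 leukocyte, 3 of 6 hormone and 0 of 2 cartilage genes. The share of all genes called there is not given here. The part of these cell types in the values of the ribosomal protein genes was not tested.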

How the data were processed

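Pituitary RNA of 19 quail was sequenced by the authors as PCR-amplified cDNA on an Oxford Nanopore device. The authors aligned the reads to a quail genome and quantified transcripts, and the submitters' processing notes name Minimap2 and Salmon. The deposited values are estimated counts per transcript, of which 99.3 to 99.6% per library are whole. No accession of the 63260 transcripts was found in the RefSeq quail table, which was used for symbols only (66 of 69 members found), so no positions or sequences are given. Counts were summed per symbol and rounded to whole numbers for tests. Genes were kept by edgeR's filter (minimum count 10, minimum total 15), scaled by TMM and tested by the quasi-likelihood F test (edgeR 4.0.16, limma 3.58.1, R 4.3.3) over all genes with Benjamini-Hochberg adjustment, pair by pair or with age and photoperiod as terms. Intervals and p-values measure the spread between birds. Members and lists were chosen with earlier results of these data known. Described in full were members called, the 2 of smallest p per direction and comparison, the 3 highest and lowest in mean level and in variation of share, and the stalk proteins, RPS6, RPS24, RPS27A, RPS27L, RPL3 and RPL22. Of a further rule, for sex chromosomes, positions were not used. RPL17, RPS23 and RPL37 were described together with RPS6 after their values were seen. Alternatives were DESeq2 1.42.0, limma-voom, other scaling factors and filters, a replicate block, and leaving out libraries. Counting only each gene's highest transcript, leaving out libraries by HINTW counts, and the other gene lists without bone-rich libraries, were chosen after seeing the data. The fitting code was tested on simulated counts. Tables and plots used Python 3.11.15 with pandas 2.3.3, numpy 2.4.6 and matplotlib 3.10.9. Each bird was 1 library, and CPM of 1 count ran from 0.208 to 11.0.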

Additional observations from a re-analysis of the deposited data

Results flagged for a closer look

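Of 120 groups of 4 or 5 birds checked for a bird far from the others (28 members and 2 shares), 8 held one, where chance gives about 1 in 20. Adult 16L replicate 2 had the lowest ribosomal protein share of library counts in its group, 1.41%, with the next bird at 3.46%, and the lowest RPL3, 73.6 CPM, with the next at 140 CPM. Adult 8L replicate 4 had the lowest RPLP1, 248 CPM, with the next bird at 678 CPM, and the lowest RPS19BP1, 3.35 CPM, with the next at 12.3 CPM. RPL36A stood at 203 CPM in juvenile 16L replicate 3, below a next bird at 236 CPM. RPL3L was counted in a single bird of 3 groups, at 0.534 CPM in adult 8L replicate 1, 2.71 CPM in juvenile 16L replicate 3 and 0.789 CPM in juvenile 8L replicate 2, and at 0 in the other birds of those groups. With all others at 0, such a bird passes this check at any level, so these 3 of the 8 say nothing about distance.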

How the results depend on the processing

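Of 213 alternatives for the number of ribosomal protein genes called, 209 gave 0 and 4 gave 1, each time RPL10A: DESeq2 for juvenile 8L minus adult 8L and for age (1 each), and for age an adjusted p under 0.2 and an unadjusted p under 0.01 (1 each). The share of all genes called by DESeq2 or at an adjusted p under 0.2 is not given here. With the replicate block 0 were called in all comparisons. The numbers do not pair birds, whose deviations correlated at -0.103 to 0.0946.

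The library share without the near-equal symbols is given above. Over symbols not starting with LOC it was 5.52% in adult 16L, 5.39% in adult 8L, 5.48% in juvenile 16L and 7.64% in juvenile 8L, and by the highest transcript 4.62, 5.25, 3.62 and 4.31% in that order. The large-subunit part was 54.1, 54.1, 56.0 and 55.9% by the highest transcript. Without the near-equal symbols the shares were 5.02, 4.83, 4.57 and 6.69%. Leaving out 1 bird, the shares ran from 3.19 to 3.90, 3.32 to 3.84, 2.76 to 3.22 and 3.40 to 3.84%.

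Medians ran from 0.07 to 0.30 for adults by photoperiod, -0.65 to -0.18 for juveniles by photoperiod, -0.26 to 0.08 for age on 16L, 0.08 to 0.67 for age on 8L, 0.01 to 0.45 for age, -0.20 to 0.10 for photoperiod and -0.83 to -0.30 for the interaction. Of 760 alternatives for 27 results of named members, 735 kept side and call, 2 passed the threshold and 23 turned sign, in 6 results. RPL7A, adult 16L minus adult 8L, ran from -0.29 to 0.033 with 1 bird left out. RPL19, juvenile 16L minus juvenile 8L, was -0.028 with no filter, -0.56 without libraries under 200000 counts, -0.031 without the bone-rich libraries, and -0.057 to 0.27 with 1 bird left out. RPL21, juvenile 16L minus juvenile 8L, was -0.11 without libraries under 200000 counts and -0.057 with listed males only. RPS10, juvenile 8L minus adult 8L, was 0.074 with upper-quartile factors, 0.12 with 10 counts in every library of a group, 0.24 without libraries under 200000 counts, 0.14 with listed males only or without the HINTW libraries, and -0.54 to 0.14 with 1 bird left out. RPS3A, juvenile 8L minus adult 8L, was 0.015 with 10 counts in every library of a group, 0.29 without libraries under 200000 counts, and -0.67 to 0.023 with 1 bird left out. RPS19BP1, age by photoperiod interaction, was -0.057 with listed males only, -0.86 without the HINTW libraries, and -0.39 to 0.69 with 1 bird left out. The causes were not tested. Depth limits the juvenile comparisons, where 4 libraries held under 200000 counts.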
